A study of Mus musculus with 4 samples.

Results

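The genes described are 41 regulators and effectors of the cell division cycle, chosen by name: 15 regulators of the G1 phase, 13 genes of DNA replication and 13 genes of mitosis. All 41 were found among the 19840 genes of the authors' deposited table by matching Ensembl identifiers to symbols. No measured value entered the choice of genes, although results of these data were known when the list was drawn up.

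The RNA came from mouse embryonic stem cells in the naive state, that is, pluripotent cells grown in 2i/LIF, a medium of kinase inhibitors with leukaemia inhibitory factor. All cells were infected with a lentivirus and selected with puromycin for 2 days. One group of 2 libraries carried a control hairpin (shCtrl) and the other group of 2 libraries one directed at Lncenc1, a long noncoding RNA (shLincenc1). Total RNA was depleted of ribosomal RNA and made into strand-specific libraries. E14TG2a and R1 are the 2 cell lines given for growth, and 2 hairpins were made per target, but no library is tied to a line or a hairpin. Whether replicate libraries stem from separate cultures is not said, so the spread that the p-values measure may be technical.

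The deposited table compares the 2 groups without stating which was the numerator. Libraries H1 and H2 of the numerator group, which held more Lncenc1, are therefore called Lncenc1-high, and libraries L1 and L2 Lncenc1-low. Lncenc1 had 6400 and 7250 normalized reads in H1 and H2 and 2126 and 2121 in L1 and L2. A normalized read count is a read count divided by the library's size factor, and each library's counts were worked back from the authors' means. These counts summed to 25990256 reads in H1, 10767826 in H2, 10989363 in L1 and 10425999 in L2. All 8 embryonic stem cell markers checked, among them Pou5f1 and Nanog, had deposited means from 1429 to 18694 normalized reads. The 5 fibroblast markers present had means from 1.13 to 187.2.

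The cell cycle is driven by cyclin-dependent kinases (CDKs), whose activity rises with their cyclins and is held down by CDK inhibitors. In G1, D cyclins with CDK4 or CDK6 and E cyclins with CDK2 phosphorylate the retinoblastoma family of pocket proteins, which releases E2F transcription factors and lets replication genes be transcribed. Genes of the later phases are transcribed in G2 and mitosis through the CHR element and CCAAT boxes of their promoters. Mouse embryonic stem cells are known for a short G1 phase and for a large share of cells in S phase.

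One gene of the 41 passed an adjusted p under 0.05 in the authors' deposited table, Rb1, which was higher in the Lncenc1-low group. Over all 14070 tested genes 1.53% passed in either direction and 1.02% passed with the higher level in the Lncenc1-low group. The other 40 genes did not pass. Limma voom called 0 of the 41, with 0.057% called over all genes. Of the 41, 37 had a 95% interval of the fold change that lay wholly within 2-fold either way in the authors' deposited table. The share was 54% over all tested genes, and 94.2% among genes averaging at least 1000 normalized reads, nearer to the level of most of the 41. In bulk RNA a smaller share of cells in a phase and less RNA per cell cannot be told apart.

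**Figure D1:**
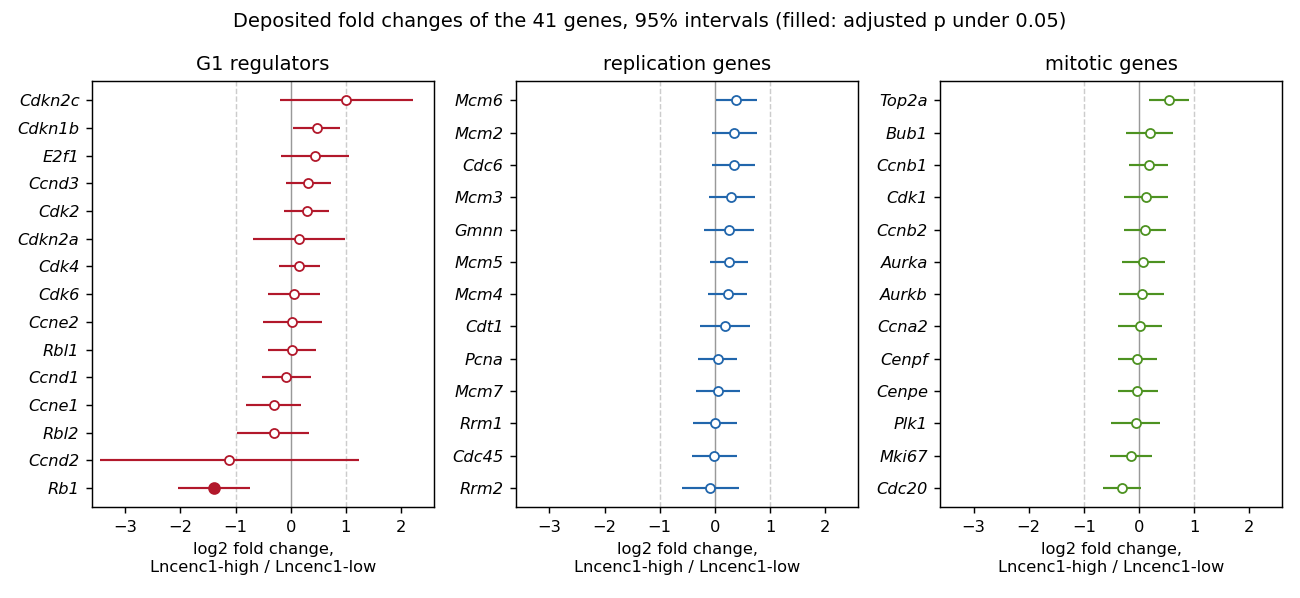
Deposited log2 fold changes (Lncenc1-high over Lncenc1-low, x axis) of the 15 G1 regulators, 13 replication genes and 13 mitotic genes, one gene a row. Points are fold changes and lines 95% intervals, dashed lines mark 2-fold, and the filled point, Rb1 at -1.39, is the 1 gene with an adjusted p under 0.05.

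Rb1 codes for the retinoblastoma protein, the pocket protein that binds activating E2F factors and restrains entry into S phase. Its level was 115 and 145.5 normalized reads in H1 and H2 and 354.9 and 325 in L1 and L2. Both low libraries lay well above both high libraries, and each pair was close within itself. Rb1 averaged 130.3 ± 21.59 (SD, n = 2) in Lncenc1-high cells and 340 ± 21.13 (SD, n = 2) in Lncenc1-low cells. Rb1 had a log2 fold change in the authors' deposited table of -1.39 ± 0.33 (SE), a 2.63-fold higher level in Lncenc1-low cells (DESeq2, adjusted p = 0.00523). The counts behind these values were 224, 116, 288 and 263 reads in H1, H2, L1 and L2.

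Rb1 kept its direction in each alternative run, but not its call. Limma voom on the recovered counts gave -1.45 with an adjusted p of 0.159. A negative binomial refit gave -1.22 without H1 (adjusted p = 0.26), -1.33 without L1 (adjusted p = 0.0655), -1.45 without L2 (adjusted p = 0.0707) and -1.56 without H2 (adjusted p = 0.0228). Over all genes these fits called 0.399%, 1.4%, 0.349% and 0.57%. With no filter on low counts (0.897% of genes called), a mean of at least 100 (1.78%) or scaling to library totals (1.6%) the adjusted p of Rb1 stayed below 0.05. Some exon bases of Rb1 overlap those of Lpar6 (6.78%) and Rcbtb2 (8.11%) on the opposite strand. The strand setting of the counting is not stated in these sources, so reads of the overlaps cannot be assigned. Lpar6, a receptor gene inside an Rb1 intron, had 250 and 202 normalized reads in the high libraries and 288.4 and 278.1 in the low. For Rcbtb2 the values were 229.5 and 183.2 against 330.3 and 270.7. Neither neighbour passed in the authors' deposited table, at adjusted p of 0.958 and 0.729. Summed over the 5 fibroblast markers the level was 161.2 and 136.7 in H1 and H2 and 374.6 and 222.5 in L1 and L2, mostly from Fbn1. Col3a1 had no reads in H2 or L2. The part of such cells in the Rb1 result was not tested. The members with the largest opposite-strand overlap with a coding gene were Ccnd1 (23.4% of exon bases), Cdk4 (19.7%), Ccne2 (17.4%), Ccna2 (12.5%) and Rbl2 (9.17%).

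The other pocket proteins did not pass. Rbl1, coding for p107, had 962.1 and 1189 normalized reads in H1 and H2 and 1077 and 1038 in L1 and L2, so the groups overlapped. Rbl2, coding for p130, which joins repressive E2F4 complexes in resting cells, had 200.2 and 218.3 against 297 and 222.5. Its low libraries lay just above its high libraries. The log2 fold change of Rbl1 in the authors' deposited table was 0.02, with a 95% interval from -0.42 to 0.46. For Rbl2 it was -0.31, with an interval from -0.97 to 0.34, so a difference near 2-fold toward the Lncenc1-low group is within the interval. Compared per kilobase of exon, Rbl1 was the most abundant of the 3 pocket protein genes. The ratio of Rb1 to Rbl1 per length was 0.119 in H1 and 0.122 in H2 and 0.328 in L1 and 0.312 in L2. Against Rbl2 the same ratio was 0.722 and 0.838 in H1 and H2 and 1.5 and 1.84 in L1 and L2. Rb1 thus stood below Rbl2 in each high library and above it in each low library.

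**Figure D2:**
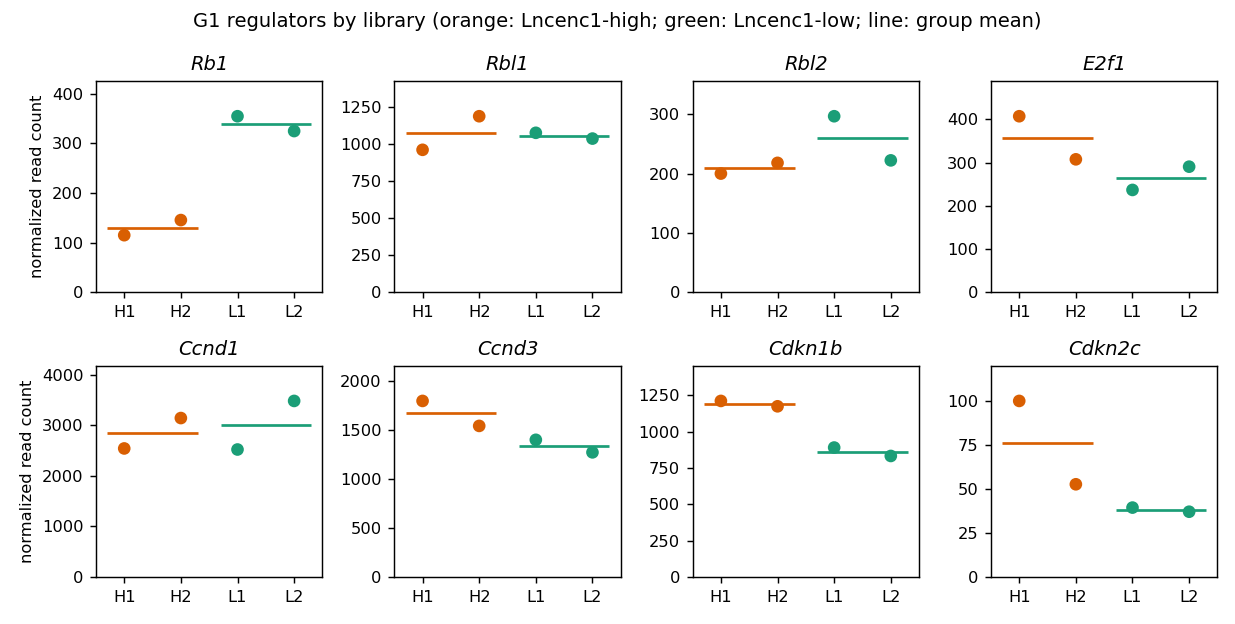
Normalized read counts (y axes, each from 0) of 8 G1 regulators in libraries H1, H2, L1 and L2, with lines at the group means. Rb1 is at 115 and 145.5 in the high libraries and at 354.9 and 325 in the low, whereas the libraries of Rbl1 and Ccnd1 overlap between groups.

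E2f1, the activating factor that RB1 restrains, had 407.1 and 307.4 normalized reads in H1 and H2 and 236.6 and 290.4 in L1 and L2. Its high libraries lay above its low ones by less than the difference between the high libraries themselves. E2f1 had in the authors' deposited table a log2 fold change of 0.44 ± 0.31 (SE) with an adjusted p of 0.822.

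Among CDK inhibitors, Cdkn1b had the second smallest p of the G1 regulators. It codes for p27, an inhibitor of cyclin E and CDK2. Its level was 1212 (H1) and 1175 (H2) normalized reads, compared with 891 (L1) and 833 (L2), with no overlap and little spread in either group. Cdkn1b had in the authors' deposited table a log2 fold change of 0.47 ± 0.21 (SE), with an unadjusted p of 0.0288 and an adjusted p of 0.453. At an unadjusted p under 0.05, 3.54% of all tested genes were higher in the Lncenc1-high group. Cdkn2c, coding for p18, an inhibitor of CDK4 and CDK6, had 100.1 and 52.69 normalized reads against 39.43 and 37.08. H1 alone lay far above the other 3 libraries, and the authors' deposited table gave 1.01 ± 0.62 (SE) with an adjusted p of 0.733. Cdkn2a, the locus of p16 and ARF, had 187.9, 143, 195.9 and 103.8 normalized reads in H1, H2, L1 and L2. Its groups overlapped, with an interval from -0.69 to 0.99 in the authors' deposited table.

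The D cyclins differed widely in level. Per kilobase of exon, Ccnd1 stood at 621 normalized reads, Ccnd3 at 171.2 and Ccnd2 at 1.67. Ccnd1 had 2544 and 3146 normalized reads in H1 and H2 and 2523 and 3485 in L1 and L2, a spread within each group larger than the difference between them. Ccnd3 had 1797 and 1542 against 1400 and 1272, with the high libraries above the low. For Ccnd3 the authors' deposited table gave 0.32 ± 0.21 (SE) and an adjusted p of 0.774. Ccnd2 rested on 26, 5, 5 and 30 reads in H1, H2, L1 and L2. Each of its groups held 1 library with 5 reads, and its interval of -3.46 to 1.23 in the authors' deposited table leaves the direction undetermined.

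The E cyclins, which drive the G1/S transition with CDK2, showed no call. Ccne1 had 1594 and 1073 normalized reads in H1 and H2 and 1910 and 1395 in L1 and L2. The libraries interleaved, and in the authors' deposited table the log2 fold change was -0.31 ± 0.25 (SE). Ccne2, at 0.03 ± 0.27 (SE) in the authors' deposited table, also overlapped. Of the kinases, Cdk4 was the most abundant G1 regulator per length, at 1940 normalized reads per kilobase, against 306 for Cdk2 and 100.3 for Cdk6. The authors' deposited table gave log2 fold changes of 0.29 for Cdk2, 0.15 for Cdk4 and 0.06 for Cdk6, all with adjusted p of at least 0.832. Cdk2 and Cdk4 were lowest in L2, at 1528 and 5367 normalized reads, with the other 3 libraries at 1901 to 2107 and at 6563 to 6708.

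Over the 15 G1 regulators the median log2 fold change was 0.06, beside -0.01 over all tested genes, in the authors' deposited table. The high libraries lay above both low libraries in 6 of 15, against 20.6% of all tested genes, and the reverse held in 2 of 15, against 20.7%. Leaving out L1 moved the median to 0.30 and leaving out H1 to 0.17.

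**Figure D3:**
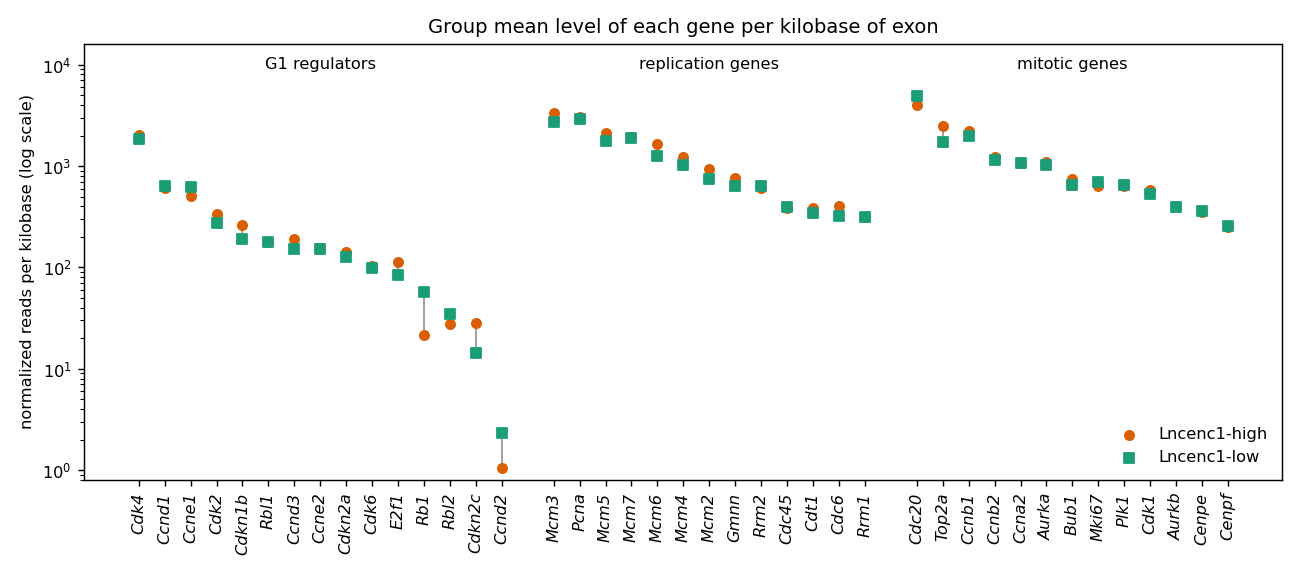
Group mean levels of the 41 genes in normalized reads per kilobase of exon (y axis, log scale), by class and ordered by level, with circles for the Lncenc1-high and squares for the Lncenc1-low group. Rb1, Cdkn2c and Ccnd2 show the widest gaps between groups, and Ccnd2, at 1.67 over all libraries, is the lowest gene.

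Promoter motifs were counted in the 3 classes as a description with no test, and no expression value enters them. RefSeq promoter windows (build GRCm38.p6), which run from 250 bases before to 50 bases after a start, were found for 33 of the 41 genes, 11 in each class. Rb1, Ccnd1, Ccnd2, Ccne2, Mcm4, Gmnn, Ccna2 and Aurkb were not in the table of windows. Each window was searched on both strands for the CHR element, spelled TTTGAA, for the CCAAT box, spelled as in its name, and for the E2F core. The forms of the core searched were TTCCCGC, then the variant TTCGCGC, next the variant TTGCCGC and last the variant TTGGCGC. The E2F core was found in 8 of 11 replication genes, 4 of 11 G1 regulators and 3 of 11 mitotic genes, against 10.9% of the 27025 genes with a window. A CHR element was found in 8 of 11 mitotic genes, 2 of 11 replication genes and 1 of 11 G1 regulators, against 20.2% of all genes. CCAAT boxes were present in 11 of 11 mitotic, 9 of 11 replication and 5 of 11 G1 genes, against 41.1%. Further replication genes from a wider list held the E2F core in 23 of 36 windows, and further mitotic genes the CHR element in 23 of 39. A match is a description of letters and no evidence of binding.

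**Figure D4:**
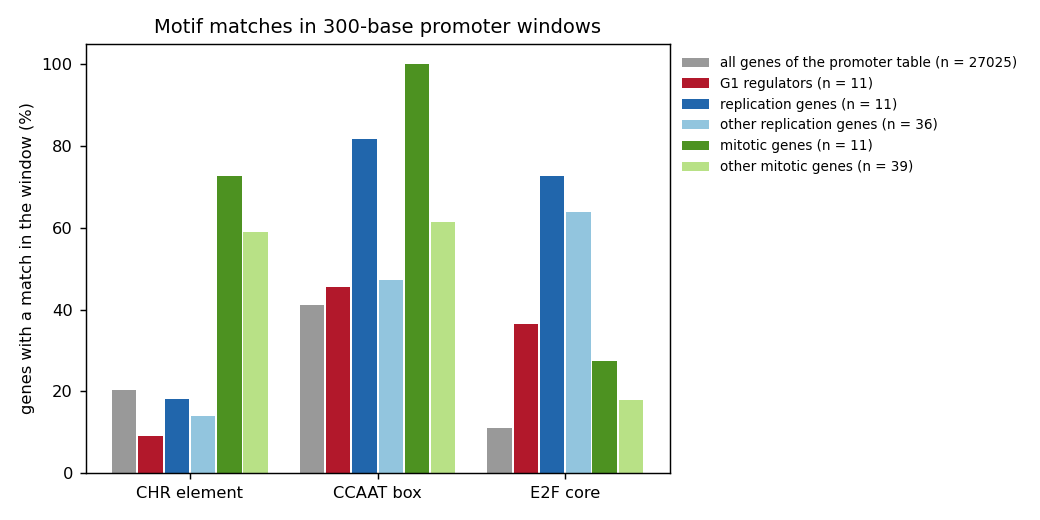
Percent of genes whose 300-base promoter window holds a CHR element, a CCAAT box or an E2F core, for all genes with a window and for each class. The E2F core is most frequent in replication genes (72.7%, with 63.9% in the wider list) and the CHR element in mitotic genes (72.7%, with 59% in the wider list).

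Stretches of 120 bases near the start are shown for a replication gene with E2F cores and for mitotic genes with CHR elements or CCAAT boxes, to show how the matches lie. Capitals mark every match on either strand, and no stretch enters an annotated exon of GENCODE M21. The E2F cores of Mcm6 occur as overlapping pairs, one on each strand. Mcm6 is shown from chr1:128359706-128359825, Top2a from chr11:99024190-99024309, Cdc20 from chr4:118437353-118437472, Cdk1 from chr10:69352939-69353058 and Ccnb2 from chr9:70421555-70421674, all on the minus strand of GRCm38.p6.
Mcm6: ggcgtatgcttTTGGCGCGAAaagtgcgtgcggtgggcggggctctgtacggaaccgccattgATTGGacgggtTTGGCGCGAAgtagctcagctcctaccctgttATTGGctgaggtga
Top2a: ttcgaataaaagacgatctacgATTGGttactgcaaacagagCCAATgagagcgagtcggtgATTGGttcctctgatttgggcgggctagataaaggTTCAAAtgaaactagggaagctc
Cdc20: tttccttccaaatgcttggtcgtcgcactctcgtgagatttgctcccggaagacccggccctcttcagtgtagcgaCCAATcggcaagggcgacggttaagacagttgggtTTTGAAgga
Cdk1: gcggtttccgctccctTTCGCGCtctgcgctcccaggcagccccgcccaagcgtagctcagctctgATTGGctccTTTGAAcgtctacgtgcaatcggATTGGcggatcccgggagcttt
Ccnb2: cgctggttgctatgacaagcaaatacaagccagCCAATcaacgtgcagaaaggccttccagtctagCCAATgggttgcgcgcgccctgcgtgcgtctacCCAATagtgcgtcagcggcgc
Mcm6 held 4 E2F matches and 2 CCAAT boxes and no CHR element. A stretch of the replication gene Mcm5, not printed, held 2 CCAAT boxes and no E2F core, and its E2F match lay outside the stretch. Top2a held 3 CCAAT boxes followed by a CHR element, and Cdc20 a CCAAT box followed by one. Cdk1 held a match to all 3 motifs. Ccnb2 held 3 CCAAT boxes, and its CHR match lay outside the stretch shown.

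None of the 13 replication genes passed in the authors' deposited table, beside 1.53% of all tested genes. Limma voom also called none of them, beside 0.057% over all genes. For so short a list, no call is close to these shares. Mcm6 alone of the 13 had an unadjusted p under 0.05. Over all tested genes 3.54% had such a p with the higher level in the Lncenc1-high group. Of the 13, 11 had positive fold changes in the authors' deposited table, from -0.09 to 0.39 (median 0.23), beside a share of 49.4% positive over all tested genes. Each of the 13 intervals lay within 2-fold, which held for 94.2% of all tested genes with a mean of at least 1000. Within 1.5-fold lay 4 of 13, against 55.2% of those genes.

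MCM2 to MCM7 form the ring-shaped helicase that is loaded on origins in G1 and unwinds DNA in S phase. Mcm6 had 7512 and 7724 normalized reads in H1 and H2 and 6403 and 5207 in L1 and L2, with no overlap. Mcm6 had a log2 fold change in the authors' deposited table of 0.39 ± 0.19 (SE), with an unadjusted p of 0.0389 and an adjusted p of 0.519. Mcm2 had 6930 and 6188 against 5900 and 4364 normalized reads, again with the high libraries above. Its log2 fold change in the authors' deposited table was 0.35 ± 0.21 (SE), with an adjusted p of 0.697. Mcm4 had 4413 and 4302 normalized reads against 3740 and 3678, and Mcm5 8664 and 8070 against 6984 and 7015. Their log2 fold changes were 0.23 and 0.26 in the authors' deposited table, each with a standard error of 0.18. Mcm3 had 13012 and 11957 normalized reads in H1 and H2, 11988 in L1 and 8272 in L2. Mcm7 had 8593 and 8709 in the high libraries, 9647 in L1 and 7010 in L2. For both, L1 reached the high libraries and L2 lay below the other 3. All 6 subunits had positive fold changes in the authors' deposited table, from 0.05 to 0.39, although Mcm7 turned to -0.16 without L2. The high libraries lay above both low ones in 5 of the 13 replication genes, 4 of them MCM subunits, against 20.6% of all tested genes and 24.1% of those with a mean of at least 1000. Per kilobase of exon the subunits ranged from 840.4 normalized reads for Mcm2 to 3014 for Mcm3.

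Cdc6 and Cdt1 load the helicase, geminin (Gmnn) blocks CDT1 outside G1, and CDC45 joins the active helicase. Cdc6 had 1991 and 2244 normalized reads in H1 and H2 and 1731 and 1624 in L1 and L2, without overlap. Its log2 fold change in the authors' deposited table was 0.34 ± 0.20 (SE), with an adjusted p of 0.71. Cdt1 had 1200 and 1242 in the high libraries, 1241 in L1 and 907.1 in L2. Gmnn had 1019 and 1189 in the high libraries, 1029 in L1 and 818.1 in L2. L2 was the lowest library for both, and their ratio per length varied little, from 0.487 to 0.563 over the 4 libraries. Cdc45 overlapped between groups, with 1448, 1282, 1412 and 1332 normalized reads in H1, H2, L1 and L2 and an interval from -0.41 to 0.40 in the authors' deposited table.

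Pcna, the sliding clamp of the replicative polymerases, had 6957, 7565, 6558 and 7408 normalized reads in H1, H2, L1 and L2, with overlapping groups. Rrm1 and Rrm2, the subunits of ribonucleotide reductase, which makes deoxyribonucleotides, had log2 fold changes of 0.00 and -0.09 in the authors' deposited table. Rrm2 varied most within the Lncenc1-low group, with 2274 normalized reads in L1 and 1280 in L2, around 1785 and 1563 in H1 and H2.

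Among the 4 libraries L2 stood lowest for replication genes. In it, 10 of 13 replication genes had their lowest level of the 4 libraries, against 31.1% of all tested genes and 39.4% of those with a mean of at least 1000. The median log2 level relative to each gene's own mean was 0.07 in H1, 0.08 in H2, 0.02 in L1 and -0.28 in L2. By the same measure L2 was also the lowest library for G1 regulators (-0.16) and mitotic genes (-0.12). It held the lowest level of 7 of 15 G1 regulators and 7 of 13 mitotic genes. Without L2 the median log2 fold change was 0.10 and 8 of 13 genes were positive, and without L1 the median was 0.38. The 8 stem cell markers summed to 81425 and 77835 normalized reads in H1 and H2 and to 68416 and 65738 in L1 and L2, with all 8 fold changes positive in the authors' deposited table. The part of these marker levels in the replication result was not tested.

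**Figure D5:**
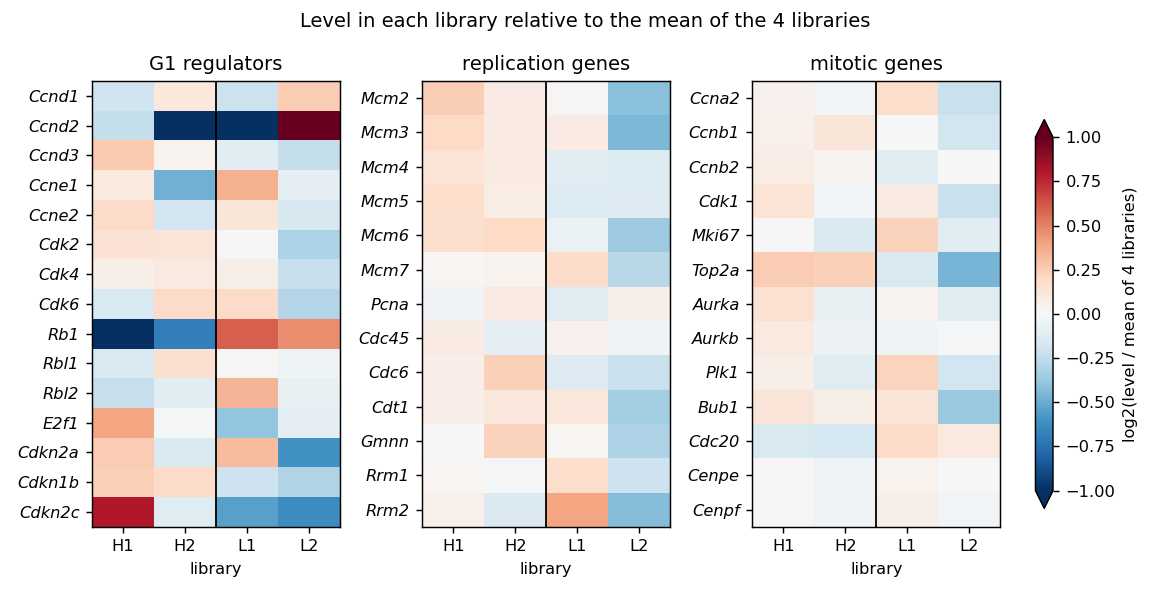
Level of each of the 41 genes in each library as log2 of the level over the gene's mean of the 4 libraries (colour, limits at -1 and 1), with a line between the Lncenc1-high (H1, H2) and Lncenc1-low (L1, L2) libraries. Rb1 is low in both high libraries, and 10 of 13 replication genes have their lowest level in L2.

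None of the 13 mitotic genes passed in the authors' deposited table (1.53% of all tested genes) or by limma voom (0.057%). For so short a list, no call is close to these shares. Top2a alone of the 13 had an unadjusted p under 0.05. Over all tested genes 3.54% had such a p with the higher level in the Lncenc1-high group. The median log2 fold change of the 13 mitotic genes in the authors' deposited table was 0.05, with 8 of 13 positive. Each interval lay within 2-fold, and 10 of 13 lay within 1.5-fold, which held for 55.2% of all tested genes with a mean of at least 1000.

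Top2a codes for topoisomerase II alpha, which untangles sister chromatids and is made from S phase to mitosis. It had 22629 and 22462 normalized reads in H1 and H2 and 17139 and 13806 in L1 and L2. The high libraries were nearly equal and lay above both low libraries. Top2a had in the authors' deposited table a log2 fold change of 0.54 ± 0.19 (SE), with an unadjusted p of 0.00356 and an adjusted p of 0.142. It was also the most abundant of the 41 genes before correction for length. Cdc20, the mitotic activator of the anaphase-promoting complex, had its higher values in the low libraries. H1 and H2 had 7541 and 7385 normalized reads, and L1 and L2 9548 and 8964, without overlap. The authors' deposited table gave Cdc20 -0.31 ± 0.18 (SE) and an adjusted p of 0.673. Per kilobase Cdc20 had the highest level of the 41, at 4475 normalized reads.

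The mitotic kinase CDK1 and its cyclins were close between groups. Cdk1 had 3007 and 2675 normalized reads in H1 and H2 and 2901 and 2341 in L1 and L2, which overlap. Ccna2, the cyclin of S phase and G2, had 4518, 4310, 4947 and 3762 in H1, H2, L1 and L2. Ccnb1 had 9119 and 9550 against 8770 and 7730, and Ccnb2 1912 and 1858 against 1694 and 1811. The high libraries of both B cyclins lay above the low ones, by small amounts. The authors' deposited table gave log2 fold changes of 0.18 ± 0.18 (SE) for Ccnb1, 0.11 ± 0.20 (SE) for Ccnb2, 0.12 ± 0.20 (SE) for Cdk1 and 0.02 ± 0.20 (SE) for Ccna2. None of these exceeded its standard error.

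The kinases and structural proteins of the mitotic spindle did not pass either. By the authors' deposited table, log2 fold changes were 0.08 for Aurka, a centrosome kinase, 0.05 for Aurkb, the chromosomal passenger kinase, -0.06 for Plk1, polo-like kinase 1, and 0.19 for Bub1, of the spindle checkpoint. Aurkb had 1256, 1125, 1142 and 1160 normalized reads in H1, H2, L1 and L2. Cenpe and Cenpf, which link kinetochores to microtubules, had little spread over the 4 libraries. Cenpe had 3114, 3011, 3158 and 3076 normalized reads and Cenpf 3925, 3799, 4065 and 3823 in H1, H2, L1 and L2. Both had a fold change of -0.03 in the authors' deposited table, with intervals of -0.39 to 0.34 and -0.39 to 0.33. Mki67, the proliferation antigen Ki-67, had 6684 and 6052 in the high and 7846 and 6195 in the low libraries. Its log2 fold change in the authors' deposited table was -0.14 ± 0.20 (SE).

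Further genes of the same pathways came from lists that were not picked for how they moved. Of 20 other G1 regulators, 45 other replication genes and 47 other mitotic genes, none passed in the authors' deposited table or by limma voom. Over all tested genes 1.53% and 0.057% passed. At an unadjusted p under 0.05 were 1, 1 and 0 of the listed genes. Over all tested genes 3.54% had such a p with the higher level in the Lncenc1-high group. The G1 gene was Skp2, the ubiquitin ligase subunit that marks p27 for degradation. Its level was 573.9 (H1) and 624.7 (H2) normalized reads, compared with 1040 (L1) and 805.8 (L2), so both low libraries were higher. For Skp2 the authors' deposited table gave -0.62 ± 0.24 (SE), with an unadjusted p of 0.0103 and an adjusted p of 0.258. At an unadjusted p under 0.05, 5.28% of all tested genes were higher in the Lncenc1-low group. E2f7, a repressor E2F, and Cdkn2b, coding for p15, had the next smallest p. Both were higher in both low libraries, at log2 fold changes of -0.64 ± 0.36 (SE) and -1.38 ± 0.79 (SE) in the authors' deposited table. Cdkn1a, coding for p21, had -0.29 in the same direction in the authors' deposited table, with overlapping libraries. Among these 20 genes the low libraries lay above both high ones in 9, against 20.7% of all tested genes. The reverse held in 1, against 20.6%.

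In the wider replication list, positive fold changes were found for 35 of 45 in the authors' deposited table (median 0.10). Over all tested genes 49.4% were positive, and 53.4% of those with a mean of at least 1000, and the list was not tested as a group. Orc5, of the origin recognition complex, had 2783 and 2790 normalized reads in H1 and H2 and 2142 and 1903 in L1 and L2. It had 0.46 ± 0.19 (SE) in the authors' deposited table, with an unadjusted p of 0.0167 and an adjusted p of 0.344. Gins2, a subunit of the active helicase, and Lig1, the ligase of Okazaki fragments, followed at 0.50 and 0.33 in the authors' deposited table. Of the exon bases of Gins2, 67.3% overlap the gene Gse1 on the opposite strand. In 17 of 45 the high libraries lay above both low ones, against 20.6% of all tested genes. The share was 24.1% among those with a mean of at least 1000. The reverse held in 1 of 45, against 20.7% of all tested genes. The median level of this list was -0.05 in L1 and in L2, so L2 did not stand apart in it. Fold changes of the 47 other mitotic genes in the authors' deposited table had a median of 0.03, and 27 were positive. The smallest p were those of Plk4, the kinase of centriole duplication, Spc24, a kinetochore protein, and Nek2, a centrosome kinase. Their log2 fold changes were 0.30, 0.32 and 0.31 in the authors' deposited table, with adjusted p from 0.792 to 0.838.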

How the data were processed

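Total RNA of 4 libraries, 2 per group, was measured, and 1 table over all genes was used. TopHat2, HTSeq, DESeq2 1.8.2 and the build mm9 are named in the submitters' processing notes, without order or settings. Per the file headers the table gives the mean normalized read count over the 4 libraries, a signal the authors computed. It also gives the authors' log2 fold change and its standard error, the Wald statistic, a score deposited per gene, and the authors' p-value and adjusted p-value. The deposited adjusted p under 0.05 was the main test. The members and lists were chosen with earlier results of these data known.

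After the data were seen, whole counts of each library were worked out of the means, each a sum of 4 counts times fixed steps read from the lowest means, by a search to 15 digits. Solutions were kept by the deposited fold change (within 0.00001 where several existed, or 0.001 where 1 did). This gave counts for 19814 of 19840 genes and all 41 members, each with a refitted fold change within 0.00001. Of the 41 members, 35 had a single solution. The 26 genes without counts hold 14.1% of the summed means and are left out of the read sums and library totals used here. Size factors were 1.95, 0.797, 0.811 and 0.809 for H1, H2, L1 and L2. Counts entered descriptions and alternatives only: a Wald refit with a negative binomial model and the dispersion implied by each deposited error, and limma 3.58.1 voom. The recovery and both fits were tested on simulated data. The recovery gave the right counts for 16375 of 16375 genes. That run was smaller than the table of 19840 genes, and recovery at high means was not tested separately. The lowest mean of a gene without counts was 9255.98. The members Top2a and Mcm3 had means of 19009 and 11307, above that level. For the fits, 50 genes each were set to differ 1.5-fold, 2-fold, 3-fold and 4-fold. The refit on 4 libraries called 12%, 38%, 72% and 66% of them in that order. Limma voom called 10%, 32%, 64% and 60%. With 1 low library left out, the refit called a smaller share at each fold than on 4 libraries. Of the genes left unchanged, the refit on 4 libraries called 12 and limma voom 26. The refit was given the dispersions used to draw the counts and limma voom was not, so these values do not rank the fits. Genes set to differ came from all levels, so the shares are not those at the level of the 41. Fits without 1 library leave 1 in its group. They keep each gene's dispersion as implied by all 4 libraries, the omitted library included. SDs are over 2 libraries, intervals are 1.96 standard errors, and 2 against 2 libraries allow no exact permutation p below 0.333.

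The rule for values per library took members with an unadjusted p under 0.05, the 3 smallest p of each class, and the D, E and B cyclins, RB family, CDK inhibitors, MCM2 to MCM7, Cdt1 and Gmnn as their relatives. Other pathway genes were named by the 3 smallest p of a list. Outside this rule, E2f1, Cdk2, Cdk4, Pcna, Cdc45, Rrm2, Cdk1, Ccna2, Aurkb, Cenpe, Cenpf, Mki67, Cdkn1a and the neighbours of Rb1 were given values after these were seen. Lengths are exon unions of GENCODE M21, of another build than the authors', and 19707 of 19840 identifiers matched a symbol.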

Additional observations from a re-analysis of the deposited data

How the results depend on the processing

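Over all genes 215 were called in the authors' deposited table, 8 by limma voom and from 49 to 196 with 1 library left out. Of the G1 regulators 1 was called, Rb1, against 0 by limma voom and from 0 to 1 with 1 library left out, the 1 being without H2. No filter, a mean of at least 100, library totals and an adjusted p under 0.1 kept 1 call. Replication and mitotic genes had 0 calls under each of these settings, and other pathway genes under each but an adjusted p under 0.1, which was not run for them. With 1 library left out the median log2 fold change ranged from 0.02 to 0.30 for G1 regulators, from 0.10 to 0.38 for replication genes and from -0.03 to 0.16 for mitotic genes. Why the count of calls differed with the library left out was not tested. Scaling to library totals moved the median of all tested genes from -0.006 to -0.028. No paired analysis was possible because the table ties no library to a replicate number of the labels. Depth limits Ccnd2, with 5 reads in 2 of the libraries, and Cdkn2c, with 30 to 195. Among the other G1 regulators it limits Cdkn2b, with 16 to 44 reads.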

Other observations

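Checkpoint genes, which delay the cycle when DNA is damaged or replication stalls, did not pass. The count of calls among 9 was 0 in the authors' deposited table (DESeq2), where 0 also had an unadjusted p under 0.05, and 0 by limma voom. The authors' deposited table had 8 of 9 positive (median 0.13), and each 95% interval lay within 2-fold. Rad1, of the checkpoint clamp, had the smallest p. Its level was 646.8 (H1), 761.5 (H2), 574.3 (L1) and 490.6 (L2) normalized reads. In the authors' deposited table Rad1 had 0.40 ± 0.25 (SE) with an adjusted p of 0.745. Chek1, the kinase that answers replication stress, had 1116, 949.7, 1034 and 727.9 normalized reads in H1, H2, L1 and L2, with L2 the lowest. Atm, the kinase that answers DNA breaks, had 2964, 3020, 2254 and 2935, and its interval in the authors' deposited table ran from -0.20 to 0.61.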
